A study of Mus musculus with 40 samples.

Results

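Toll-like receptors are the proteins through which B cells sense microbial molecules beside their antigen receptor. TLR1, TLR2, TLR4 and TLR6 sit at the cell surface and read bacterial lipoproteins and lipopolysaccharide, whereas TLR3, TLR7 and TLR9 sit in endosomes and read nucleic acids. UNC93B1 carries the endosomal receptors to their compartment, MyD88 is the adaptor that all of them except TLR3 signal through, and CD180 is a related surface receptor of B cells. The 10 genes described here, Tlr1, Tlr2, Tlr3, Tlr4, Tlr6, Tlr7, Tlr9, Cd180, Myd88 and Unc93b1, were taken by their symbol in the annotation of the array. They are 10 of the 21892 named genes, and 13 of its 39485 probes read them. Tlr4 has 2 probes and Tlr7 has 3, whose values were averaged, and the other 8 genes have 1 each.

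Their RNA was measured in spleen B cells of Dock10 knockout and wild-type mice, all C57BL/6 and 12 weeks old. Dock10 encodes an activator of small GTPases, and the sources used here do not say which part of it the knockout lacks or in which cells. Uncultured cells formed the groups KO_Pre and WT_Pre, with 10 mice per group. From the mice numbered 6 to 10, part of the cells spent 18 h in medium alone (KO_Ctrl and WT_Ctrl) or in medium with 10 ng/ml of IL-4 (KO_IL4 and WT_IL4), which makes 5 mice in every cultured group. IL-4 is a T helper cytokine that B cells respond to. B cells had been enriched by removing other cells with magnetic beads. Every value is a log2 ratio of a sample (Cy5) to the same pool of RNA from the 5 KO_Pre samples of mice 6 to 10 (Cy3), so a value of 0 is the level in that pool. Such a ratio compares arrays for 1 gene, and it cannot rank genes by their level. Differences are differences of these log2 ratios, given with their standard error (SE). A gene is said to have risen or fallen where limma's adjusted p, taken over all 21892 genes, was under 0.05.

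The promoter windows of 4 genes are printed because their levels carry the main results. Tlr1 and Tlr2 fell together with IL-4, Tlr9 stood higher in KO_IL4 than in WT_IL4, and Myd88 differed the other way in the same pair of groups. The windows are RefSeq's (GRCm38.p6) and run from 250 bases before to 50 after a start site, 5′ to 3′ on the strand of the gene. Capitals mark matches, on either strand, to the motifs described after them.
Tlr1 (chr5:64932650-64932949, minus strand): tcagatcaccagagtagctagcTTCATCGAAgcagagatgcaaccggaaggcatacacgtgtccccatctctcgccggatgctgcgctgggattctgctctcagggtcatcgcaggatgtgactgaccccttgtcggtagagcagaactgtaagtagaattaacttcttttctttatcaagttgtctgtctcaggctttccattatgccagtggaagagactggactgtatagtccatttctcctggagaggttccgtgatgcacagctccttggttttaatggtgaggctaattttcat
Tlr2 (chr3:83841559-83841858, minus strand): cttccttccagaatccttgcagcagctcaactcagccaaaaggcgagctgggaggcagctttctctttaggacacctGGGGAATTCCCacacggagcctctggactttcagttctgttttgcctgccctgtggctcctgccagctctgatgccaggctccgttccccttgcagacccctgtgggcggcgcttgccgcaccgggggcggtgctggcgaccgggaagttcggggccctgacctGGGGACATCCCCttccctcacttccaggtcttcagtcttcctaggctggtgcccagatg
Tlr9 (chr9:106222348-106222647, plus strand): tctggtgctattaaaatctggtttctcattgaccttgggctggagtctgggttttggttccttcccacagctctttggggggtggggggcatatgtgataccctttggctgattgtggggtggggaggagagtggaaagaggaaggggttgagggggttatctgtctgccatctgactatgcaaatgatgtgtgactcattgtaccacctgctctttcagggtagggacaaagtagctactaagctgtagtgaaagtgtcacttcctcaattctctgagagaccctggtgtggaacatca
Myd88 (chr9:119339969-119340268, minus strand): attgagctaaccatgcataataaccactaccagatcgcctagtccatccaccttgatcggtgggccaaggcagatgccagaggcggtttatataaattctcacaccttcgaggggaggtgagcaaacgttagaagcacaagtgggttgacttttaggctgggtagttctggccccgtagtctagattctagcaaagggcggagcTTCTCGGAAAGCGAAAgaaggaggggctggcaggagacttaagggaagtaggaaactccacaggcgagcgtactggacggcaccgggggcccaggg

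RefSeq's table had a window for 7 of the 10 genes, with 2 windows each for Tlr1, Tlr6 and Cd180. Of the 2 for Tlr1 the one with a match is shown. A gene was counted where any of its windows held a match, whereas the shares given beside the counts are of single windows. The spacing bound by STAT6, the factor that IL-4 activates, was searched as TTCNNNNGAA and was found in the windows of 0 of the 7 genes, against 6.95% of all 32851 windows. The spacing TTCNNNGAA, which other STAT factors bind, was found in windows of 3 genes (Tlr1, Tlr6 and Myd88), against 8.3% of all windows. The core of the interferon response element, GAAANNGAAA, was found in windows of 2 genes (Tlr6 and Myd88), against 3.44% of all windows. The NF-kB pattern GGGNNNNNCC was found in windows of 3 genes (Tlr2, Tlr3 and Tlr6), against 50.8% of all windows. In Myd88 the match to GAAANNGAAA begins 40 bases before the start site and overlaps that to TTCNNNGAA, which begins 46 bases before it. The Tlr9 window holds a match to none of these patterns. A match is only a run of letters, and no binding was measured.

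The arrays were checked for what could touch these genes. Dock10 averaged -0.08 ± 0.20 in KO_Pre and 0.30 ± 0.23 in WT_Pre (SD, n = 10 each), with overlapping ranges. It was -1.12 ± 0.33 in KO_Ctrl and -0.57 ± 0.22 in WT_Ctrl, and 0.52 ± 0.21 in KO_IL4 and 1.59 ± 0.31 in WT_IL4 (SD, n = 5 each). Whether its probes lie in the deleted part is not given. Across 10 of the 20 fresh arrays, those numbered 1 to 4 and 10 in both genotypes, Xist was between 4.74 and 5.92 and Eif2s3y between -11.1 and -10.1. On the other 30 arrays they were between -1.59 and 0.85 and between -0.15 and 0.68. The cultured arrays numbered 10 are among these 30, so the fresh and cultured arrays with that number go against labels that name 1 mouse per genotype. Values with the mouse as a block rest on these labels, because each such fit includes fresh arrays. Results without the fresh arrays numbered 10 are given where the block changes a call. The reference pool is described as holding RNA of KO_Pre mouse 10, whose fresh array is among the 10 with high Xist. The make-up of the pool was not tested. Wild-type mouse 6 also stood apart. The median of 26 interferon-stimulated genes was -1.64 on its WT_Ctrl array, against -0.40 to 0.40 on the other 4, and -2.14 on its WT_IL4 array, against -1.01 to 0.04 on the other 4. In the KO_Ctrl arrays that median lay between -2.33 and -2.01. The labels call the cells B cells. Of the 10 listed B cell markers 9 were measured, and their median per array lay between -0.66 and 0.26 in KO_Pre and between -0.54 and 0.18 in WT_Pre, but a ratio to a B cell pool cannot show whether a marker is absent. Markers of some other cells spread more on the fresh arrays. Neutrophil markers had array medians between -0.30 and 2.72 in KO_Pre and between -0.0015 and 4.07 in WT_Pre. For macrophage and monocyte markers they lay between -1.12 and 0.95 and between -0.71 and 1.46. For T cell markers they lay between -0.14 and 2.49 and between -0.05 and 1.76.

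**Figure D1:**
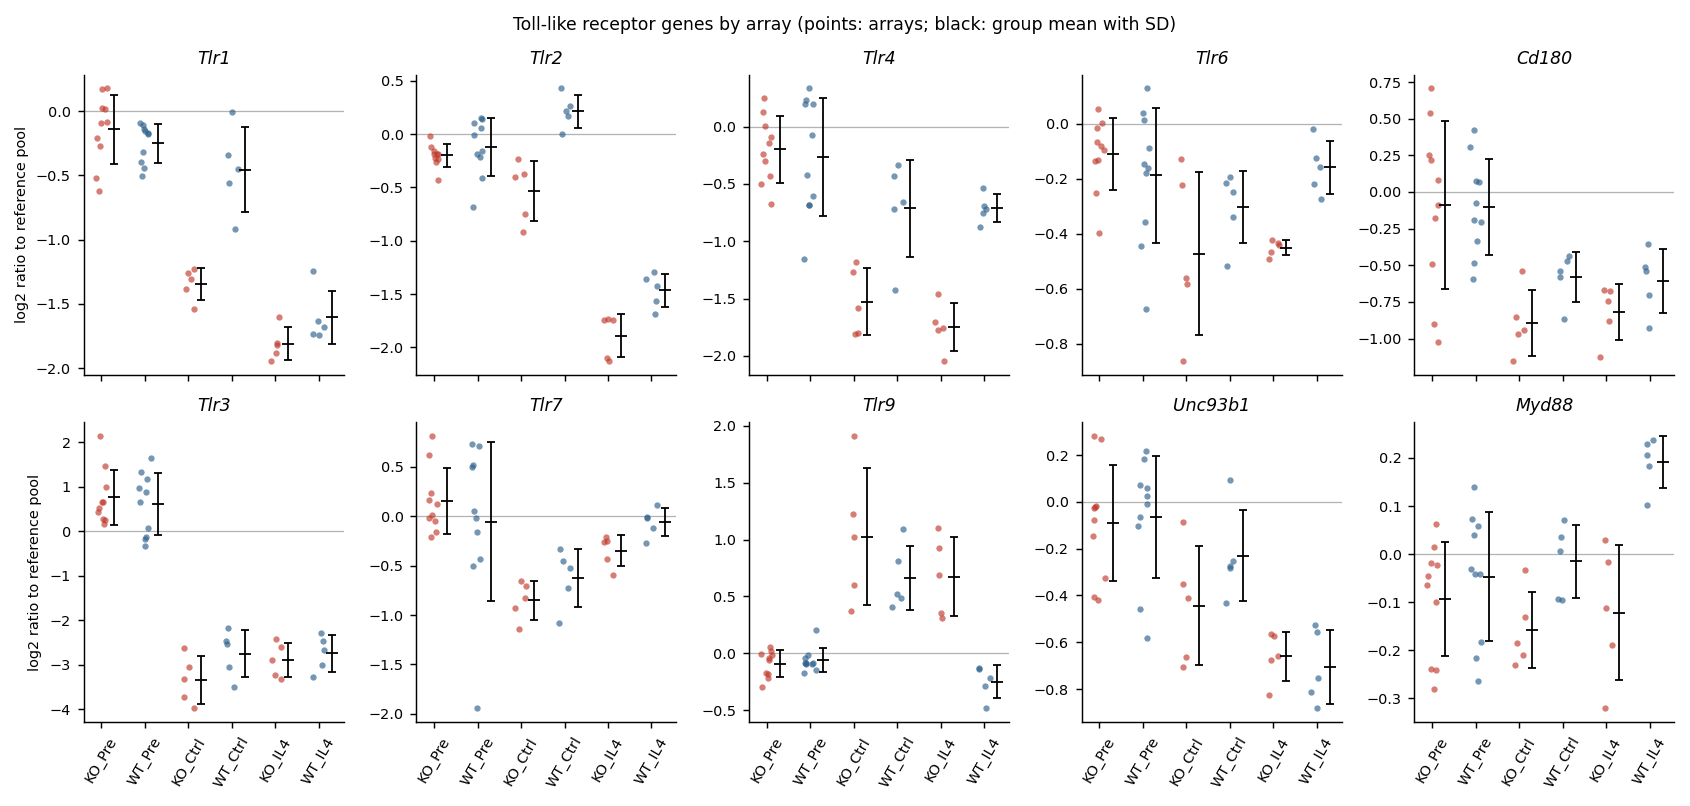
Each panel plots the log2 ratio to the reference pool (vertical axis) of 1 gene on every array, by group, with knockout arrays in red and wild-type arrays in blue, and the group mean with its SD in black. Tlr3 lies between -3.98 and -2.18 in every cultured array and above -0.33 in every fresh one, and Tlr9 in KO_IL4 lies wholly above WT_IL4.

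Before culture no difference between the genotypes passed the test for any of the 10 genes. Tlr1 averaged -0.14 ± 0.27 in KO_Pre and -0.25 ± 0.15 in WT_Pre (SD, n = 10 each). Tlr9, the receptor for CpG DNA, averaged -0.09 ± 0.12 in KO_Pre and -0.06 ± 0.10 in WT_Pre. The lowest, median and highest values of Tlr2 were -0.43, -0.19 and -0.02 in KO_Pre, and -0.68, -0.08 and 0.15 in WT_Pre. The ranges of the groups overlapped for all 10 genes. The largest difference among them was that of Tlr7, the receptor for single-stranded RNA, at 0.21 (SE 0.26). Of the 10 genes 0 were called by limma, and 0 had an unadjusted p under 0.05. Over all genes 0% rose and 0% fell as well (smallest adjusted p 1, with 892 genes at an unadjusted p under 0.05). The median difference was 0.04 for the 10 genes and 0.02 for all genes. It was -0.63 for 14 macrophage and monocyte markers and -0.76 for 10 neutrophil markers, of which 0 were called. Their part in the receptors' values was not tested.

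In cells cultured without IL-4 the genotypes differed in 3 of the surface receptors. Tlr1, Tlr2 and Tlr4 fell in KO_Ctrl relative to WT_Ctrl, by 1.85, 1.68 and 1.76 times. These are 3 of the 10 genes, where 8.43% of all genes fell and 6.87% rose. The median difference was -0.27 for the 10 genes and 0.05 for all genes.

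Tlr1 encodes the partner with which TLR2 recognises triacylated lipopeptides. In the order of mice 6 to 10, it was -1.30, -1.39, -1.26, -1.23 and -1.54 in KO_Ctrl, against -0.92, -0.01, -0.56, -0.34 and -0.45 in WT_Ctrl. All knockout arrays were below all wild-type ones, and wild-type mouse 6 was the closest to them. The difference was -0.89 (SE 0.14, adjusted p 4.67e-05), and -1.002 (adjusted p 6.67e-06) without wild-type mouse 6. Tlr2 encodes the shared partner of TLR1 and TLR6. It was -0.23, -0.40, -0.91, -0.37 and -0.75 in KO_Ctrl, against -0.001, 0.43, 0.215, 0.17 and 0.26 in WT_Ctrl, again with no overlap. The difference was -0.75 (SE 0.14, adjusted p 0.000349).

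Tlr4, the lipopolysaccharide receptor, averaged -1.53 ± 0.29 in KO_Ctrl and -0.71 ± 0.43 in WT_Ctrl (SD, n = 5 each). Its groups overlapped through wild-type mouse 6, at -1.42. The difference was -0.82 (SE 0.20, adjusted p 0.00494), and -0.99 (adjusted p 0.000182) without wild-type mouse 6. The 2 probes of Tlr4 gave different values, which are set out further on, and the call rests on 1 of them. Tlr6, the other partner of TLR2, differed by -0.17 (SE 0.12, adjusted p 0.396), and Cd180 by -0.31 (SE 0.22, adjusted p 0.386). Neither was called. With quantile normalization of the arrays the calls of Tlr2 (-0.62, adjusted p 0.0680) and Tlr4 (-0.59, adjusted p 0.333) were lost.

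The endosomal receptors, with probes averaged, did not pass the test in this pair of groups. Tlr3, the receptor for double-stranded RNA, differed by -0.59 (SE 0.30, adjusted p 0.207), and Tlr7 by -0.23 (SE 0.14, adjusted p 0.306). With the median of its 3 probes Tlr7 differed by -0.60 (SE 0.17, adjusted p 0.0185) and passed. Tlr9 differed by 0.37 (SE 0.20, adjusted p 0.235). It was 0.37, 1.02, 1.91, 0.60 and 1.23 in KO_Ctrl, against 0.81, 1.09, 0.52, 0.48 and 0.40 in WT_Ctrl. The KO_Ctrl values spread widely around those of WT_Ctrl, and mouse 8 was the highest. Unc93b1 differed by -0.21 (SE 0.15, adjusted p 0.373) and Myd88 by -0.14 (SE 0.08, adjusted p 0.251).

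Other transcripts moved beside the receptors. Of 26 measured interferon-stimulated genes all 26 fell in KO_Ctrl relative to WT_Ctrl, with a median difference of -1.78. Of 9 measured B cell markers 7 fell, with a median of -0.57. The median of these markers per array lay between -1.09 and -0.69 in KO_Ctrl and between -0.55 and 0.11 in WT_Ctrl. Of 14 macrophage and monocyte markers 1 rose and 1 fell, with array medians between -1.65 and -0.13 in KO_Ctrl and between -0.90 and -0.26 in WT_Ctrl. Hbb-b1, a globin transcript of red cells, averaged 2.83 ± 0.27 in KO_Ctrl (2.45 to 3.16) and 0.23 ± 1.21 in WT_Ctrl (-0.52 to 2.39), with no overlap. The part of these transcripts in the receptors' values was not tested. In bulk RNA, fewer cells of a type and less RNA per cell cannot be told apart.

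With IL-4 the genotypes differed in 4 of the 10 genes. Tlr9 rose in KO_IL4 relative to WT_IL4, by 1.90 times, and Tlr2, Tlr4 and Myd88 fell, by 1.34, 2.05 and 1.24 times. Among all genes 8.57% rose and 9.85% fell. The median difference was -0.25 for the 10 genes and -0.08 for all genes.

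Tlr9 was 0.69, 0.35, 0.31, 1.098 and 0.92 in KO_IL4, against -0.21, -0.48, -0.29, -0.13 and -0.14 in WT_IL4. All knockout arrays were above the fresh level of the pool and all wild-type ones below it. The difference was 0.93 (SE 0.20, adjusted p 0.00213). Myd88 was -0.11, -0.02, 0.03, -0.19 and -0.32 in KO_IL4, against 0.10, 0.24, 0.18, 0.23 and 0.21 in WT_IL4. The groups did not overlap, and the difference was small at -0.31 (SE 0.08, adjusted p 0.00664).

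Tlr2 averaged -1.89 ± 0.20 in KO_IL4 and -1.47 ± 0.16 in WT_IL4 (SD, n = 5 each), with a difference of -0.42 (SE 0.14, adjusted p 0.0329). This call was lost without 5 of the arrays taken one at a time, namely those of WT_IL4 mice 6, 7 and 8 and of KO_IL4 mice 9 and 10 (adjusted p 0.0617 to 0.102). It was also lost when only genes with an SD above the median were kept (adjusted p 0.0943). The ratio of each array's dark corner controls as a covariate removed it too (-0.39, adjusted p 0.0722). Tlr4 averaged -1.75 ± 0.21 in KO_IL4 and -0.71 ± 0.12 in WT_IL4, with no overlap and a difference of -1.03 (SE 0.20, adjusted p 0.000985). Tlr1, which had differed without IL-4, differed by -0.21 here (SE 0.14, adjusted p 0.291), and its groups overlapped. Tlr6 was -0.44, -0.42, -0.47, -0.43 and -0.49 in KO_IL4, against -0.16, -0.02, -0.12, -0.22 and -0.27 in WT_IL4. Its groups did not overlap, but the difference of -0.29 (SE 0.12) had an adjusted p of 0.0909. The remaining members were not called, with differences of -0.29 for Tlr7, -0.21 for Cd180, -0.15 for Tlr3 and 0.05 for Unc93b1. With quantile normalization the calls of Tlr2 (-0.11, adjusted p 0.791), Tlr4 (-0.56, adjusted p 0.257) and Myd88 (-0.30, adjusted p 0.120) were lost. Beside these genes, 24 of the 26 interferon-stimulated genes and 3 of the 9 B cell markers fell in KO_IL4 relative to WT_IL4. Of 6 T cell markers 3 fell and 1 rose (median -0.75), and of 5 B1 cell markers 2 fell (median -0.47). Hbb-b1 averaged 1.33 ± 0.39 in KO_IL4 and 0.36 ± 0.88 in WT_IL4, with overlap. Their part in these values was not tested.

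**Figure D2:**
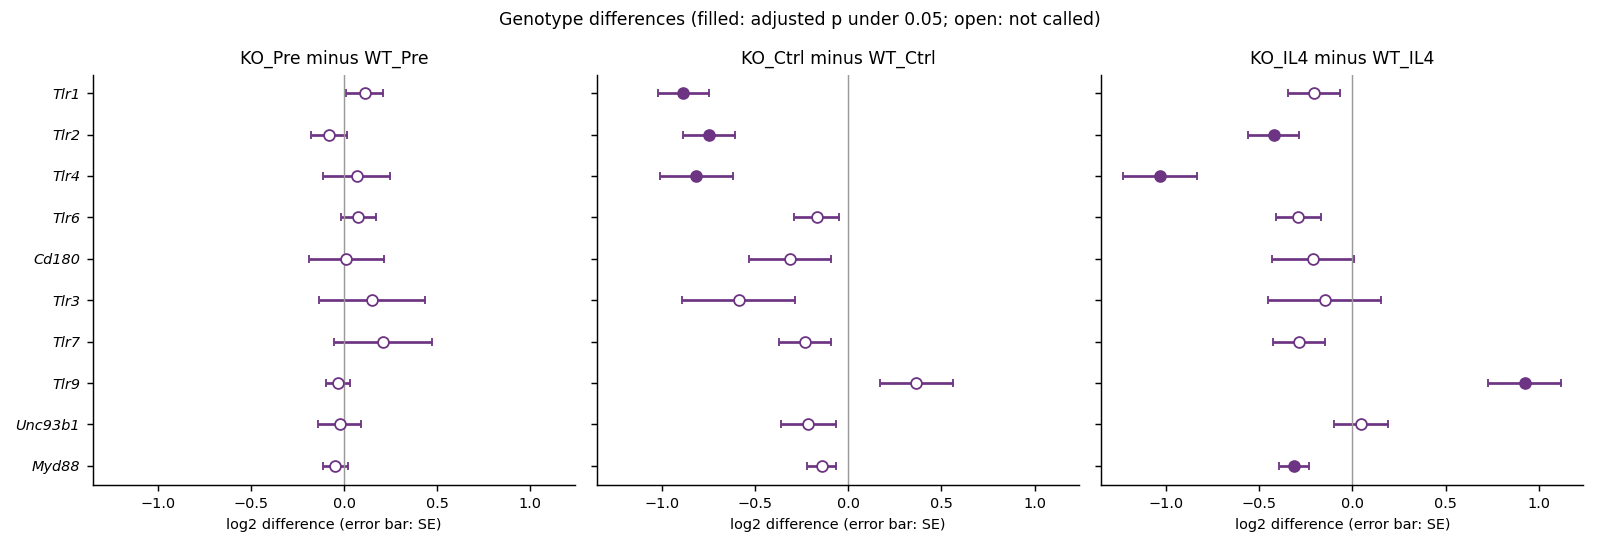
The panels plot the log2 difference of knockout minus wild type (horizontal axis) of each gene with its SE, in fresh cells, in cells cultured without IL-4 and with it, and filled points mark called genes. Fresh cells have 0 filled points, cells without IL-4 have 3 (Tlr1, Tlr2 and Tlr4, all below 0) and cells with IL-4 have 4, of which Tlr9 is above 0.

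IL-4 lowered Tlr1 and Tlr2 in both genotypes and raised Tlr7. In wild-type cells Tlr2 fell by 3.21 times and Tlr1 by 2.22 times in WT_IL4 relative to WT_Ctrl, Tlr9 by 1.88 times and Unc93b1 by 1.39 times, while Tlr7 rose by 1.47 times. These are 4 genes that fell and 1 that rose of 10, where 11.4% of all genes fell and 15.5% rose. In knockout cells Tlr2 fell by 2.56 times and Tlr1 by 1.38 times in KO_IL4 relative to KO_Ctrl, and Tlr7 rose by 1.42 times. Among all genes 4.39% fell and 4% rose there. The median difference of the 10 genes was -0.10 in the knockout and -0.01 in wild type, and that of all genes 0.02 and 0.12. The comparison of IL-4 in wild type and that of genotype without IL-4 share the WT_Ctrl arrays. Of the B cell markers 4 of 9 fell with IL-4 in wild type and 1 fell in the knockout, and of the interferon-stimulated genes 10 and 1 of 26 fell. Their part was not tested.

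Tlr2 was -1.75, -1.73, -1.74, -2.10 and -2.13 in KO_IL4, against -0.23, -0.40, -0.91, -0.37 and -0.75 in KO_Ctrl (difference -1.36, SE 0.14, adjusted p 1.16e-07). It was -1.36, -1.29, -1.43, -1.69 and -1.56 in WT_IL4, against -0.001, 0.43, 0.215, 0.17 and 0.26 in WT_Ctrl (difference -1.68, SE 0.14, adjusted p 1.04e-09). Every array with IL-4 was below every array without it, in each genotype. Tlr1 was -1.88, -1.95, -1.82, -1.60 and -1.81 in KO_IL4, below all KO_Ctrl arrays (difference -0.47, SE 0.14, adjusted p 0.0316). It was -1.68, -1.24, -1.74, -1.63 and -1.73 in WT_IL4, below all WT_Ctrl arrays (difference -1.15, SE 0.14, adjusted p 6.07e-07). In the knockout the call of Tlr1 was lost without any 1 of KO_Ctrl arrays 6 to 9 or KO_IL4 arrays 6, 7, 8 and 10 (adjusted p 0.0506 to 0.0845). It was also lost with quantile normalization (-0.43, adjusted p 0.213) and when only genes with an SD above the median were kept (adjusted p 0.121).

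Tlr7 averaged -0.35 ± 0.16 in KO_IL4 and -0.85 ± 0.19 in KO_Ctrl (difference 0.50, SE 0.14, adjusted p 0.0241). It averaged -0.06 ± 0.14 in WT_IL4 and -0.62 ± 0.29 in WT_Ctrl (SD, n = 5 each, difference 0.56, SE 0.14, adjusted p 0.00433). Groups with and without IL-4 did not overlap in either genotype. In the knockout this call was lost without any 1 of KO_Ctrl arrays 8 and 9 or KO_IL4 arrays 6, 7 and 8 (adjusted p 0.0525 to 0.0696), and with quantile normalization (adjusted p 0.398) or all 40 arrays in 1 fit (adjusted p 0.359). In wild type it was lost with quantile normalization (adjusted p 0.0706), with all 40 arrays (adjusted p 0.169), with the median of the 3 probes in place of their mean (adjusted p 0.0557), and on 2 of the 3 probes by themselves (adjusted p 0.0837 and 0.0756).

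Tlr9 differed by -0.35 between KO_IL4 and KO_Ctrl (SE 0.20, adjusted p 0.309) and by -0.91 between WT_IL4 and WT_Ctrl (SE 0.20, adjusted p 0.00108). Unc93b1 averaged -0.71 ± 0.16 in WT_IL4 and -0.23 ± 0.20 in WT_Ctrl (difference -0.48, SE 0.15, adjusted p 0.0166), a call that was lost without WT_Ctrl mouse 7 (adjusted p 0.0594). Between KO_IL4 and KO_Ctrl it differed by -0.22 (SE 0.15, adjusted p 0.420). Myd88 differed by 0.21 between WT_IL4 and WT_Ctrl (SE 0.08, adjusted p 0.0513), and with the mouse as a block it passed (adjusted p 0.0406). It also passed without the fresh arrays numbered 10 (adjusted p 0.0355). Tlr3, Tlr4, Tlr6 and Cd180 were not called with IL-4 in either genotype, and their differences lay between -0.22 and 0.44.

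Whether IL-4 acted differently in the genotypes was tested as the difference of its effects. Of the 10 genes 0 were called by limma, where 0.608% of all genes rose and 0.585% fell. The only one with an unadjusted p under 0.05 was Tlr1, whose IL-4 effect was 0.68 higher in the knockout (SE 0.19, adjusted p 0.0717). With the mouse as a block this difference passed (SE 0.15, adjusted p 0.0299). It also passed without wild-type mouse 6 (0.78, adjusted p 0.0326), without the fresh arrays numbered 10 (adjusted p 0.0465), and without array 6 of WT_Ctrl, 7 of WT_IL4 or 8 of KO_Ctrl alone (adjusted p 0.0192 to 0.0477). For Tlr9 the difference of the effects was 0.56 (SE 0.28, adjusted p 0.318), and without KO_Ctrl mouse 8, its highest array, it was 0.78 (adjusted p 0.0409). For Tlr2 it was 0.32 (SE 0.20, adjusted p 0.415). For Unc93b1 it was 0.26 (SE 0.21, adjusted p 0.555). The median over the 10 genes was 0.18, and -0.09 over all genes.

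Culture without IL-4 lowered Tlr3 far more than any other of these genes, and raised Tlr9. Relative to KO_Pre, 8 of the 10 genes fell in KO_Ctrl and Tlr9 rose, where 31.2% of all genes fell and 19.8% rose. Relative to WT_Pre, 3 genes fell in WT_Ctrl (Tlr3, Tlr4 and Tlr7) and 2 rose (Tlr2 and Tlr9), where 26.4% of all genes fell and 13.2% rose. These comparisons use mice 6 to 10. The values are not centred, and the median difference of all genes was -0.12 for KO_Ctrl against KO_Pre and -0.15 for WT_Ctrl against WT_Pre. For the 10 genes it was -0.69 and -0.15.

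Tlr3 made the largest change among the 10 genes in both genotypes. It was -3.72, -3.98, -2.62, -3.04 and -3.33 in KO_Ctrl, against 0.17, 0.66, 0.53, 1.48 and 0.43 in KO_Pre. It was -3.50, -3.05, -2.53, -2.47 and -2.18 in WT_Ctrl, against 0.88, 0.97, 1.33, 1.18 and -0.13 in WT_Pre. No cultured array came near a fresh one. The fall was 15.9 times in the knockout (difference -3.99, SE 0.30, adjusted p 6.85e-11) and 12.1 times in wild type (difference -3.60, SE 0.30, adjusted p 1.38e-09). The drop was as large with IL-4, at -3.55 for KO_IL4 against KO_Pre and -3.59 for WT_IL4 against WT_Pre. Lists of markers of other cells and of B cell subsets moved as well, some down and some up. Of 7 dendritic cell markers 5 fell in KO_Ctrl (median -1.76) and 6 in WT_Ctrl (median -2.08). Of 14 macrophage and monocyte markers 7 fell and 4 rose in KO_Ctrl (median -0.77), and 8 fell and 3 rose in WT_Ctrl (median -0.86). Of 6 marginal zone B cell markers 5 fell in KO_Ctrl (median -1.16) and 4 in WT_Ctrl (median -0.99). This list includes Fcer2a, which marks these cells by a low level, and its direction was not turned. The dendritic cell markers had array medians between -2.20 and -1.63 in KO_Ctrl, against -0.20 to 0.61 in KO_Pre. They lay between -2.53 and -1.37 in WT_Ctrl, against 0.0045 to 0.68 in WT_Pre. Of 6 natural killer cell markers 4 fell and 1 rose in KO_Ctrl, and 5 fell in WT_Ctrl. Of 10 neutrophil markers 4 fell and 2 rose in KO_Ctrl, and 5 fell and 2 rose in WT_Ctrl. Of 5 B1 cell markers 4 rose in KO_Ctrl (median 0.94) and 2 in WT_Ctrl (median 0.39). Of 6 T cell markers 3 rose and 2 fell in KO_Ctrl, and 1 rose and 1 fell in WT_Ctrl. Of 7 plasmacytoid dendritic cell markers 2 rose and 2 fell in KO_Ctrl (median 0.56), and 1 rose and 1 fell in WT_Ctrl (median 0.23). Their part in the fall of Tlr3 was not tested.

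Tlr9 rose with culture in both genotypes, by 2.05 times in KO_Ctrl (difference 1.03, SE 0.20, adjusted p 0.000107) and by 1.58 times in WT_Ctrl (difference 0.66, SE 0.20, adjusted p 0.00958). The lowest cultured array of each genotype was above its highest fresh one. With the ratio of each array's dark corner controls as a covariate both calls were lost (0.84, adjusted p 0.0569, in the knockout and 0.54, adjusted p 0.143, in wild type). Tlr7 fell in both, by 0.93 on the log2 scale in KO_Ctrl (SE 0.14, adjusted p 6.33e-06) and by 0.80 in WT_Ctrl (SE 0.14, adjusted p 0.000104), with no overlap.

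Tlr1 and Tlr2 took different courses in the genotypes. Tlr1 fell in KO_Ctrl relative to KO_Pre (difference -1.18, SE 0.14, adjusted p 1.22e-07), whereas in WT_Ctrl relative to WT_Pre its difference was -0.14 (SE 0.14, adjusted p 0.429). Tlr2 differed by -0.38 in the knockout (SE 0.14, adjusted p 0.0251) and by 0.47 in wild type (SE 0.14, adjusted p 0.00874). With quantile normalization the knockout's value of Tlr2 was 0.010 (adjusted p 0.972). The knockout's call was also lost without KO_Pre array 9 or KO_Ctrl array 8 or 10 (adjusted p 0.0602 to 0.0969). The difference of the culture effects was called for 2 of the 10 genes, Tlr1 at -1.03 (SE 0.19, adjusted p 0.00128) and Tlr2 at -0.85 (SE 0.20, adjusted p 0.00710). Among all genes 4.46% fell and 2.22% rose in this comparison. The median was -0.37 over the 10 genes and 0.05 over all genes. With quantile normalization the call of Tlr2 was lost (-0.76, adjusted p 0.134). Beside them, all 26 interferon-stimulated genes fell in KO_Ctrl relative to KO_Pre and 6 in WT_Ctrl relative to WT_Pre, and of the 9 B cell markers 7 and 1 fell. Their part was not tested. For Tlr4 the difference of the effects was -0.83 (SE 0.28, adjusted p 0.0753), with the mouse as a block, which takes the arrays numbered 10 as 1 mouse, it passed (adjusted p 0.0416). It was -0.76 (adjusted p 0.126) without the fresh arrays numbered 10. It also passed without wild-type mouse 6 (-0.88, adjusted p 0.0241). On the probes of Tlr4 by themselves it was -2.06 (adjusted p 0.000178) and 0.40 (adjusted p 0.690). For Cd180 it was -0.49 (SE 0.31, adjusted p 0.415), and -0.76 (adjusted p 0.0428) without KO_Pre array 10.

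Tlr4 fell by 1.38 on the log2 scale in KO_Ctrl (SE 0.20, adjusted p 2.84e-06) and by 0.55 in WT_Ctrl (SE 0.20, adjusted p 0.0302). These values are means of its probes. The probe designed on NM_021297 differed by -3.00 in KO_Ctrl and -0.94 in WT_Ctrl. The probe designed on AK014533 differed by 0.25 (adjusted p 0.516) and -0.15 (adjusted p 0.723) and was not called. The call in wild type was lost without WT_Pre array 7, 8 or 9 or WT_Ctrl array 6 (adjusted p 0.0599 to 0.123). Tlr6 differed by -0.39 in KO_Ctrl (SE 0.12, adjusted p 0.00907) and by -0.04 in WT_Ctrl (SE 0.12, adjusted p 0.811). Its call in the knockout was lost with median centring (-0.29, adjusted p 0.0676) and quantile normalization (-0.11, adjusted p 0.664). A fit of only the groups compared lost it too (adjusted p 0.0536). Median centring also removed the calls of Tlr2 in KO_Ctrl (-0.28, adjusted p 0.105) and Tlr4 in WT_Ctrl (-0.41, adjusted p 0.0862). Cd180 differed by -0.97 in KO_Ctrl (SE 0.22, adjusted p 0.000671) and by -0.48 in WT_Ctrl (SE 0.22, adjusted p 0.0818). In wild type it passed with the mouse as a block (adjusted p 0.0321) and without the fresh array numbered 10 (-0.60, adjusted p 0.0320). Unc93b1 differed by -0.45 in KO_Ctrl (SE 0.15, adjusted p 0.0119) and by -0.15 in WT_Ctrl (SE 0.15, adjusted p 0.423). The differences of Cd180 and Unc93b1 in the knockout were 0.04 and 0.09, and not called, with the dark corner covariate. In the same fit the calls of Tlr2 (-0.26, adjusted p 0.445) and Tlr6 (-0.44, adjusted p 0.106) in KO_Ctrl and of Tlr4 in WT_Ctrl (-0.40, adjusted p 0.299) were lost too. Myd88 was called in neither genotype (-0.04 and 0.10). In WT_Ctrl it passed with median centring (0.23, adjusted p 0.0371) and with quantile normalization (0.32, adjusted p 0.0301).

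**Figure D3:**
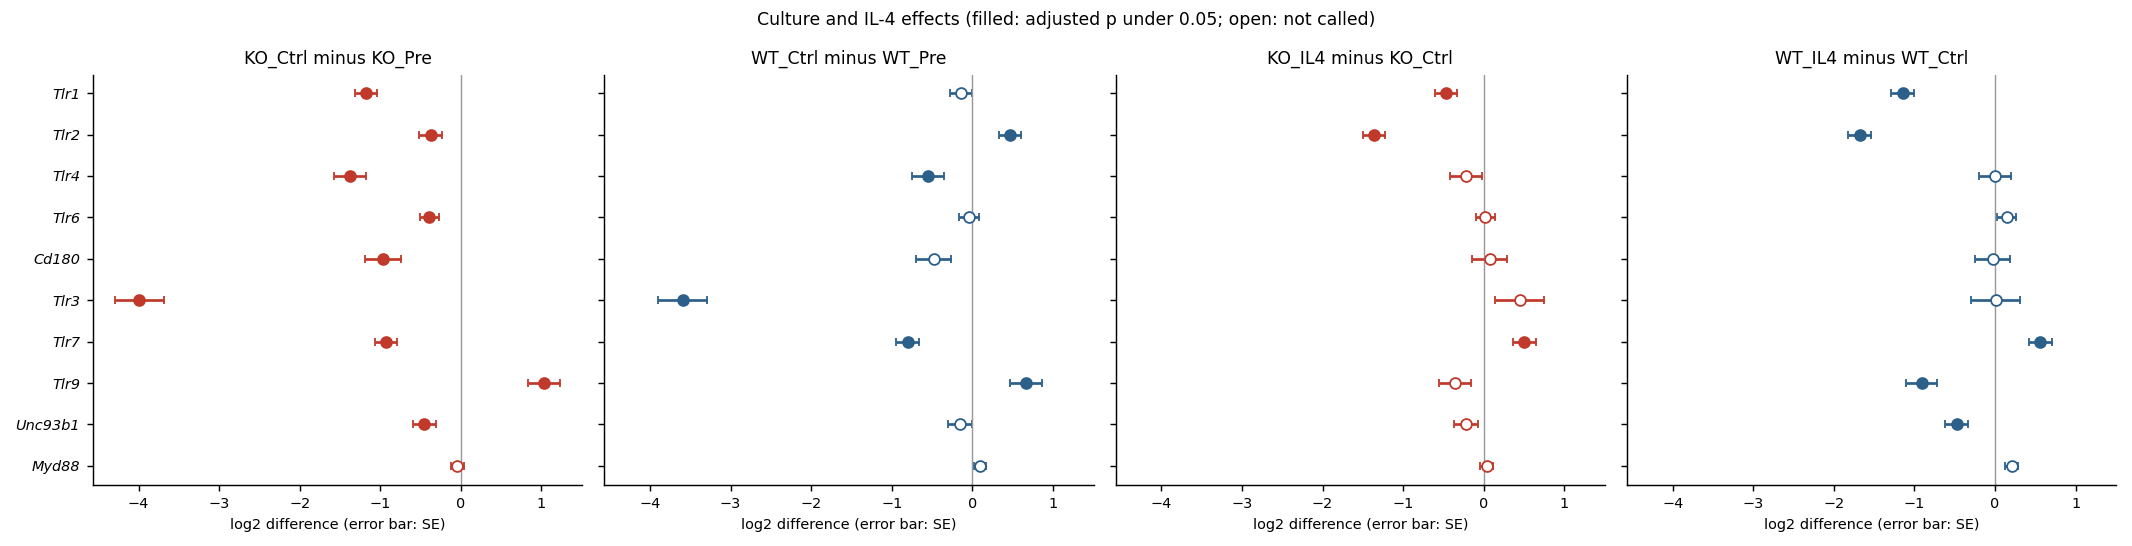
The panels plot the log2 difference (horizontal axis, with SE) of each gene for culture (Ctrl minus Pre) and for IL-4 (IL4 minus Ctrl), in the knockout in red and in wild type in blue, and filled points mark called genes. Tlr3 stands farthest from 0 with culture, at -3.99 and -3.60, and Tlr2 with IL-4, at -1.36 and -1.68.

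Cells with IL-4 were also set against fresh cells. In KO_IL4 relative to KO_Pre 8 of the 10 genes fell and Tlr9 rose (0.68, SE 0.20, adjusted p 0.00628, and 0.51, adjusted p 0.224, with the dark corner covariate), where 27.8% of all genes fell and 18.6% rose. That covariate also removed the calls of Tlr6 (-0.41, adjusted p 0.0973), Tlr7 (-0.17, adjusted p 0.606), Cd180 (-0.03, adjusted p 0.958) and Unc93b1 (-0.20, adjusted p 0.476). On the AK014533 probe by itself Tlr4 was not called (-0.52, adjusted p 0.162). Neither probe of Tlr7 designed on NM_133211 was called by itself (-0.15 and -0.20, adjusted p 0.465 and 0.421). The call of Tlr7 was also lost with the median of its probes (-0.22, adjusted p 0.309), quantile normalization (adjusted p 0.0640) and all 40 arrays (adjusted p 0.101). That of Tlr6 was lost with median centring (-0.28, adjusted p 0.0867) and quantile normalization (-0.09, adjusted p 0.730). In WT_IL4 relative to WT_Pre 5 genes fell (Tlr1, Tlr2, Tlr3, Tlr4 and Unc93b1), where 14.3% of all genes fell, and Myd88 rose (0.30, SE 0.08, adjusted p 0.00405), where 12.7% of all genes rose. Tlr1 fell by 3.12 times in KO_IL4 and by 2.45 times in WT_IL4, and Tlr2 by 3.32 and 2.31 times. In WT_IL4 Tlr7 and Tlr9 were not called (-0.24 and -0.25, adjusted p 0.225 and 0.391), and Tlr2 differed by -1.21. The median difference of the 10 genes was -0.78 in the knockout and -0.53 in wild type, and that of all genes -0.11 and -0.07. Cd180 differed by -0.51 in WT_IL4 (SE 0.22, adjusted p 0.0882) and passed with the mouse as a block (adjusted p 0.0319). Without the fresh arrays numbered 10 it passed as well (-0.63, adjusted p 0.00246). The call of Tlr4 in WT_IL4 (-0.55, SE 0.20, adjusted p 0.0403) was lost without 7 of the 10 arrays taken one at a time, those of WT_Pre 7, 8 and 9 and WT_IL4 6, 7, 9 and 10 (adjusted p 0.0622 to 0.141).

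Over the 6 groups of mice 6 to 10, each gene had its own order of levels. For Tlr2 it was KO_IL4, WT_IL4, KO_Ctrl, WT_Pre, KO_Pre and WT_Ctrl from low to high, and WT_Pre and KO_Pre, at -0.26 ± 0.31 and -0.16 ± 0.08 (SD, n = 5 each), lay within their spread. For Tlr1 it was KO_IL4, WT_IL4, KO_Ctrl, WT_Ctrl, WT_Pre and KO_Pre, with the first and second places and the last 3 within their spread. For Tlr9 it was WT_IL4, KO_Pre, WT_Pre, WT_Ctrl, KO_IL4 and KO_Ctrl, where the fresh groups were level and the last 3 overlapped. For Tlr3 the 4 cultured groups, between -3.34 and -2.74, lay within their spread, as did both fresh ones, at 0.65 and 0.85. The range of group means was widest for Tlr3 (4.18), followed by Tlr2 (2.11), and narrowest for Myd88 (0.35).

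The probes of Tlr4 did not move together. On the probe designed on NM_021297 the values were -2.74, -2.86, -3.34, -2.66 and -3.50 in KO_Ctrl, against -1.84, -1.43, -1.32, -1.08 and -1.08 in WT_Ctrl, with no overlap. Their difference, in a fit of every probe, was -1.67 (SE 0.22, adjusted p 6.18e-06). With IL-4 it was -1.69 (adjusted p 2.67e-05), and the difference of the culture effects was -2.06 (SE 0.31, adjusted p 0.000178). In fresh cells the same probe lay between -0.17 and 0.10 in KO_Pre and between -1.25 and 0.004 in WT_Pre, a difference of 0.45 (SE 0.15, unadjusted p 0.00712, adjusted p 1.00). On the probe designed on AK014533 KO_Ctrl and WT_Ctrl differed by 0.04 (SE 0.30, adjusted p 0.952), and KO_IL4 and WT_IL4 by -0.38 (SE 0.30, adjusted p 0.377). There the difference of the culture effects was 0.40 (SE 0.43, adjusted p 0.690). This probe spread more within groups, with SDs of 0.54 in KO_Ctrl and 0.65 in WT_Ctrl. Both probes of Tlr7 designed on NM_133211 fell in KO_Ctrl relative to WT_Ctrl, by 0.60 and 0.63 on the log2 scale (SE 0.16 and 0.20, adjusted p 0.0114 and 0.0324). The remaining probe, designed on AJ812652, averaged -0.44 ± 0.72 in KO_Ctrl and -0.97 ± 0.41 in WT_Ctrl (SD, n = 5 each) and was not called. With IL-4 in the knockout the AJ812652 probe went the other way from the gene's mean, at -0.43 (SE 0.32, adjusted p 0.485).

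**Figure D4:**
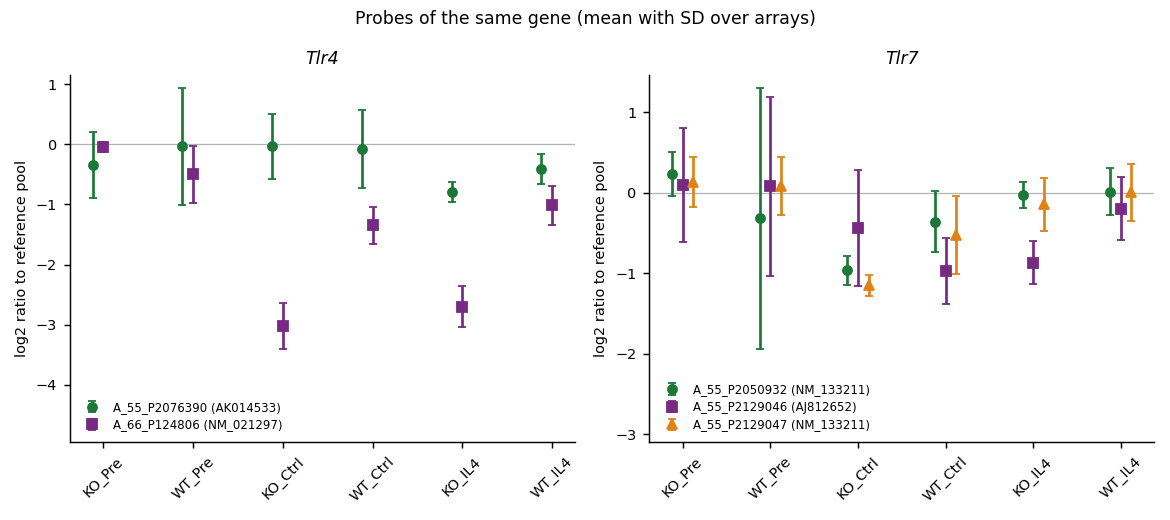
Mean log2 ratio to the reference pool (vertical axis) with its SD over the arrays of each group, for the 2 probes of Tlr4 and the 3 of Tlr7, each named with the transcript it was designed on. The Tlr4 probe on NM_021297 averages -3.02 in KO_Ctrl and -1.35 in WT_Ctrl, where the other averages -0.04 and -0.08.

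Other genes of the pathway were read from 5 lists. Their counts stand beside the shares of all genes given for the same comparisons, 8.43% fell and 6.87% rose in KO_Ctrl relative to WT_Ctrl, 9.85% and 8.57% in KO_IL4 relative to WT_IL4, 11.4% and 15.5% with IL-4 in wild type and 4.39% and 4% in the knockout. Nothing particular to a list is read from them. Of the 5 other Toll-like receptors (Tlr5, Tlr8, Tlr11, Tlr12 and Tlr13), Tlr12 fell in KO_Ctrl relative to WT_Ctrl. Tlr12, which reads profilin in mice, averaged -2.37 ± 0.29 in KO_Ctrl and -0.17 ± 0.69 in WT_Ctrl (SD, n = 5 each, difference -2.20, SE 0.26, adjusted p 1.68e-06). IL-4 moved it in opposite directions, by 0.94 in the knockout (adjusted p 0.0232) and by -1.42 in wild type (adjusted p 0.000201). The difference of these effects was called (2.36, SE 0.37, adjusted p 0.00169). With culture 3 of the 5 fell and 1 rose in KO_Ctrl, where 31.2% of all genes fell and 19.8% rose. In WT_Ctrl 2 fell and 1 rose, where 26.4% of all genes fell and 13.2% rose. Tlr11 averaged -2.95 ± 1.02 in KO_Ctrl and -2.55 ± 1.21 in WT_Ctrl (SD, n = 5 each). In fresh cells it averaged -0.19 ± 0.14 in KO_Pre and -0.06 ± 0.35 in WT_Pre (SD, n = 10 each). Tlr8 rose with culture in both genotypes (1.45 and 1.31, adjusted p 2.63e-05 and 0.000208) and was higher in KO_IL4 than in WT_IL4 (1.08, SE 0.25, adjusted p 0.00353). Tlr13, a sensor of bacterial ribosomal RNA, was called in neither genotype comparison of cultured cells (-0.12 and 0.12).

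Of 19 measured genes for partners, folding, transport and processing, 6 fell and 1 rose in KO_Ctrl relative to WT_Ctrl, and likewise 6 and 1 with IL-4. Ly86, which encodes MD-1, the partner CD180 needs at the surface, averaged -1.55 ± 0.28 in KO_Ctrl and -0.61 ± 0.20 in WT_Ctrl (difference -0.94, SE 0.17, adjusted p 0.000349). It differed by -0.59 with IL-4 (SE 0.17, adjusted p 0.0186). Ly96, which encodes MD-2, the partner of TLR4, was called in neither (0.43 and -0.17) and rose with culture in both genotypes (1.28 and 0.67, adjusted p 1.28e-05 and 0.0117). Pld4, an endosomal exonuclease, fell in KO_Ctrl (difference -1.74, SE 0.28, adjusted p 7.29e-05). With IL-4 in wild type 6 of the 19 fell and 3 rose, among which Slc15a3, an endolysosomal peptide transporter, rose by 5.50 times (adjusted p 5.30e-12) and Cd14, a lipopolysaccharide coreceptor, fell by 2.34 times (adjusted p 0.0139). In the knockout 3 fell and 2 rose, and Slc15a3 rose by 3.43 times.

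Among 20 measured adaptors, kinases and ubiquitin ligases, 3 fell and 1 rose in KO_Ctrl relative to WT_Ctrl. Peli2, a ubiquitin ligase, rose (1.06, SE 0.24, adjusted p 0.00255), while Ikbke, a kinase of the interferon branch, and Btk, a kinase of the antigen receptor, fell (-0.64 and -0.53, adjusted p 0.0118 and 0.0230). In cells with IL-4 the mean of Peli2 was lower in the knockout, with overlap. It was -1.03 ± 0.26 in KO_IL4 and -0.29 ± 0.62 in WT_IL4 (SD, n = 5 each). With IL-4 in wild type 7 of the 20 rose and 2 fell, and Ikbke rose by 2.71 times (adjusted p 7.70e-07). Of 11 measured transcription factors 3 rose and 2 fell in KO_Ctrl. Irf7, which drives type I interferon, fell there (-2.06, SE 0.37, adjusted p 0.000248). Rel, an NF-kB subunit, rose with IL-4 in wild type (1.45, SE 0.20, adjusted p 7.38e-06). Of 14 negative regulators 5 fell and 2 rose in KO_Ctrl, among which Sigirr, an inhibitor of receptor signalling, fell by 2.01 times (SE 0.12 on the log2 scale, adjusted p 1.97e-06) and Nfkbiz, a modulator of NF-kB, rose (0.77, SE 0.15, adjusted p 0.000580). Socs1, an inhibitor of cytokine signalling, rose with IL-4 by 8.01 times in KO_IL4 and by 18.3 times in WT_IL4 (adjusted p 8.62e-07 and 1.14e-09). Its level without IL-4 spread widely in the knockout. It was -0.31 ± 1.24 in KO_Ctrl (-1.48 to 1.355) and -0.81 ± 0.33 in WT_Ctrl (SD, n = 5 each). The genes Arl8b, Irak4, Traf3, Chuk and Nfkb1 of these lists were not analysed here.

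Over the 30 arrays of mice 6 to 10, Tlr1 and Tlr2 correlated at r = 0.85 and Tlr7 and Tlr9 at -0.77, the highest and the lowest of the 45 pairs. All of these points share 1 reference pool and the 6 groups, so these values are descriptions. The genes most like Tlr2, the member called in most comparisons (9 of 11), were Akr1b10 (r = 0.976), S100a10 (0.974), Akr1b8 (0.970), Dmac2 (0.952) and Rasgrp3 (0.951). Akr1b10 averaged -1.34 ± 0.10 in KO_IL4, -1.22 ± 0.11 in WT_IL4, -0.47 ± 0.18 in KO_Ctrl and -0.02 ± 0.15 in WT_Ctrl (SD, n = 5 each). The genes most like Tlr3 were Mycl (r = 0.959), Flacc1 (0.958), Ackr3 (0.955), Rab38 (0.953) and Terb1 (0.952).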

How the data were processed

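RNA was read on 40 two-colour Agilent arrays. The values used are log2 ratios of sample to common reference as deposited by the authors, and GeneSpring GX was used for the analysis, per the labels' design text. The images were read with Agilent Feature Extraction 11.0.1.1, per the submitters' processing notes. For the normalization within arrays and the genome build, the method is not given in the sources used here. Of 39485 probes 30625 had 1 gene symbol, 8804 had none and 56 were controls, and probes of a gene were averaged, which gave 21892 genes with 0 missing values. The number of arrays limits the precision.

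Fresh groups were compared in 20 arrays, and the other 10 comparisons in 1 fit of the 30 arrays of mice 6 to 10, with limma 3.58.1 in R 4.3.3 (lmFit and eBayes, Benjamini-Hochberg over all genes, called at an adjusted p under 0.05). The procedure was checked on simulated data. The 10 genes and all lists were chosen with earlier results of these data known. Pathway genes were named by the size of their difference among those called, with Ly86, Ly96, Tlr8 and Tlr13 always named, and likeness was Pearson's r. Samples of 1 genotype with the same number come from the same mouse, per the labels, which the sex-linked transcripts of the fresh and cultured arrays numbered 10 go against. Deviations of such pairs correlated at 0.17 to 0.29 between WT_IL4 and WT_Ctrl, at -0.28 to 0.28 between KO_IL4 and KO_Ctrl, at -0.12 to 0.10 between KO_Ctrl and KO_Pre and at -0.11 to 0.15 between WT_Ctrl and WT_Pre. Alternatives covered normalization, filters, array weights, blocks, probes and left-out arrays.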

Additional observations from a re-analysis of the deposited data

Results flagged for a closer look

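Single arrays stood far from the rest of their group for 3 of the 60 sets of 1 gene in 1 group, where chance gives about 1 in 20, or 3. Tlr1 was -1.244 in WT_IL4 mouse 7, against -1.739 to -1.631 on the other arrays of that group. Tlr7 was -1.946 in WT_Pre mouse 3, against -0.505 to 0.734 on the others, and its 3 probes read -4.877, -0.809 and -0.152 there. Tlr9 was 0.209 in WT_Pre mouse 6, against -0.173 to -0.012 on the others. The effect of culture differed between the genotypes by the test of the difference itself for Tlr1 (-1.033) and for Tlr2 (-0.8482), each given as the effect in the knockout minus that in wild type.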

How the results depend on the processing

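The values are relative to 1 pool, with no measure of signal over background, so weak probes could not be set aside. The arrays numbered 10 and wild-type mouse 6 stand apart, as described. The number of the 10 genes called in fresh cells was 0 under all 34 alternatives. Between the cultured genotypes it lay between 1 and 4 without IL-4 and between 1 and 5 with it.

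Quantile normalization left 1 gene called in each of KO_Ctrl against WT_Ctrl, KO_IL4 against WT_IL4, KO_IL4 against KO_Ctrl and the difference of the culture effects, and turned Tlr2 in KO_Ctrl against KO_Pre to 0.010. Keeping genes with an SD above the median, which leaves 6 of the 10 genes, gave 2 calls in KO_IL4 against WT_IL4, 1 in KO_IL4 against KO_Ctrl, 5 in KO_Ctrl against KO_Pre and 3 in WT_IL4 against WT_Pre. With array weights the difference of the IL-4 effects had 1 call and that of the culture effects 4. The difference of the IL-4 effects also had 1 call without wild-type mouse 6, without the fresh arrays numbered 10, and with the mouse as a replicate block. All 40 arrays in 1 fit gave 3 calls in WT_Ctrl against WT_Pre. The dark corner ratio as a covariate gave 3 there, 4 in KO_Ctrl against KO_Pre and 4 in KO_IL4 against KO_Pre, with Cd180 at 0.043 and Unc93b1 at 0.095 in KO_Ctrl against KO_Pre. Leaving out 1 array at a time gave 1 to 3 calls in KO_IL4 against KO_Ctrl and 0 to 2 in the difference of the IL-4 effects. Single probes turned Tlr4 to 0.04 in KO_Ctrl against WT_Ctrl and to 0.25 in KO_Ctrl against KO_Pre, and Tlr7 to -0.43 in KO_IL4 against KO_Ctrl. Apart from the fewer genes or arrays that some settings use, the cause was not tested.

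The replicate block of the mouse number changed no call between the genotypes. Same-numbered arrays correlated at 0.23 to 0.54 in KO_Pre and WT_Pre, at -0.17 to 0.17 in KO_Ctrl and WT_Ctrl and at 0.091 to 0.30 in KO_IL4 and WT_IL4. The mouse as a block changed the calls given with it in the results and no other.

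Over all genes, quantile normalization gave 674 calls in place of 3350 for KO_Ctrl against WT_Ctrl, 1399 in place of 4032 for KO_IL4 against WT_IL4, 3655 in place of 5899 and 334 in place of 1838 for IL-4 in wild type and knockout, and 364 in place of 1462 for the difference of the culture effects. The SD filter gave 1091, 1960, 2137, 739 and 466 for these 5. Against fresh cells it gave 5176 in place of 8654 (WT_Ctrl), 6013 in place of 11155 (KO_Ctrl), 2363 in place of 5893 (WT_IL4) and 5463 in place of 10166 (KO_IL4), and the dark corner covariate 4614 (WT_Ctrl), 5477 (KO_Ctrl) and 5714 (KO_IL4). Fits of only the groups compared gave 1923 for KO_Ctrl against WT_Ctrl and 1168 for IL-4 in the knockout. The difference of the IL-4 effects had 261 calls, 123 in its own groups, 1548 with array weights, 460 without wild-type mouse 6, 545 without the fresh arrays numbered 10, and 97 (without KO_IL4 mouse 9) to 1309 (without KO_Ctrl mouse 8) with 1 array left out. Array weights gave 3387 for the culture effects. KO_IL4 against WT_IL4 had 2594 without KO_IL4 mouse 9, and IL-4 in the knockout 1211 without KO_IL4 mouse 7.

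The share of calls that rose was 19.3% after quantile normalization and 44.9% before it for KO_Ctrl against WT_Ctrl, 61.1% and 46.5% for KO_IL4 against WT_IL4, 42.3% and 57.5% for IL-4 in wild type, 84.7% and 51% where the IL-4 effects were compared, and 19.5% and 33.2% for that of the culture effects. Against fresh cells it was 54.4% and 33.3% for WT_Ctrl, 50.6% and 38.8% for KO_Ctrl and 51% and 40.1% for KO_IL4. Median centring gave 50.5% for WT_Ctrl and 63.9% in place of 47% for WT_IL4.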
